A study of Mus musculus with 16 samples.

Results

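Interferon-stimulated genes are transcribed when an interferon, a cytokine released on viral infection or tissue alarm, binds its receptor on a cell. The set described here was a list of 39 such genes given by name: antiviral enzymes, sensors of foreign nucleic acid, transcription factors of the pathway, GTPases, antigen-processing genes, Schlafen genes and other effectors. Each gene was measured by the probe set that carries its symbol alone and has the highest mean over the arrays, with no filter on signal. By this rule 37 of the 39 genes were measured, among 18193 genes in all. Isg15, the ubiquitin-like founder of the set, shares its probe set with a second gene symbol, and Ifi44 has no probe set named for it, so neither was analysed here. Of the 37, 32 had a signal above the median of its array on all 16 arrays. Mx1 was above it on 0 arrays and Oas3 on 7, so their values are those of weak signals.

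Type I interferons bind the receptor of Ifnar1 and Ifnar2 and signal to the nucleus, where factors that include Stat2 and Irf9 act at the interferon-stimulated response element in target promoters. Interferon gamma acts through its own receptor and a different promoter element, the gamma-activated site. Irf7 is itself an interferon-stimulated gene and drives further interferon production, and in the lung this system is the first barrier against respiratory viruses, in epithelium and in leukocytes alike.

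The RNA came from whole lungs of female BALB/c mice, an inbred laboratory strain, and was hybridised to Affymetrix mouse 430 2.0 arrays. The 4 groups had 4 arrays each: non-pregnant mice given phosphate-buffered saline (PBS), non-pregnant mice given titanium dioxide particles (TiO2), pregnant mice given PBS and pregnant mice given TiO2. Pregnant mice were at gestation day 14, the single dose of 50 ug TiO2 in PBS or of PBS alone was placed in the nose under light halothane, the particles had been baked to remove endotoxin, and lungs were taken 19 hours later. The stated question was whether pregnancy alters the weak response of the lung to a particle regarded as inert. No transgene, deletion or age was given in the labels. All 4 groups received halothane and a volume of liquid into the nose, and an untouched lung was not among them.

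Some arrays stood apart before any test. Replicate numbers within a group were assigned here and are not in the labels. The labels of non-pregnant PBS replicate 2 conflict: its source name gives a pregnant mouse and its gestation field a non-pregnant one. It was kept with the latter, which gives the 4 arrays per group that the study states. Markers of thymocytes and thymic epithelium were high on a pair of non-pregnant PBS arrays, with list means of 7.49 in replicate 3 and 7.87 in replicate 4, against 5.09 to 5.67 on the other 14 arrays. Squamous epithelium markers averaged 4.91 and striated muscle markers 5.90 in pregnant TiO2 replicate 2, against at least 8.23 and 9.06 on every other array. Defining lung markers were present on all arrays: the alveolar type 2 list averaged 12.21 to 12.36 log2, the alveolar type 1 list 11.27 to 11.75 and the endothelial list 10.73 to 11.05. In bulk lung RNA, a change in the share of a cell type and a change in RNA per cell cannot be told apart. The labels do not say that each array is 1 mouse, so p-values measure the spread between these samples only.

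All values below are log2(intensity + 16) after quantile normalization, a scale that understates the change of weak signals. A difference is a difference of group means on that scale with its standard error (SE) from limma's fit to all arrays. A gene was said to rise or fall when its Benjamini-Hochberg adjusted p over all 18193 genes was under 0.05.

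**Figure D1:**
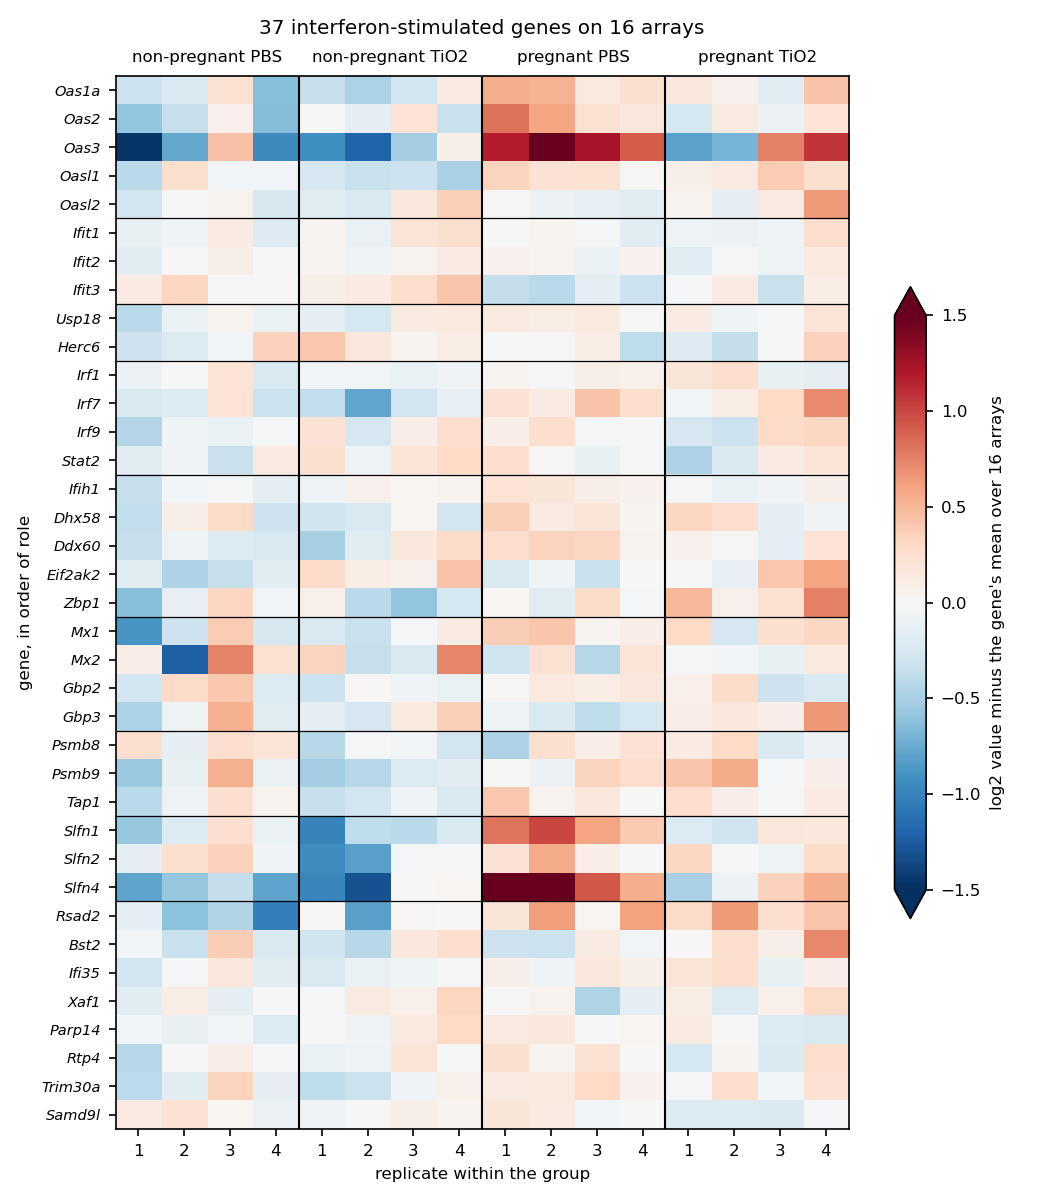
Each row is 1 of the 37 measured genes in order of role and each column 1 of the 16 arrays, with colour giving the log2 value minus that gene's mean over all arrays (colours stop at −1.5 and 1.5). Red cells gather in the pregnant PBS columns for Oas3, Slfn1 and Slfn4, and non-pregnant PBS replicate 3 and pregnant TiO2 replicate 4 are redder than the arrays beside them.

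Some of the genes changed with pregnancy, and none passed the test for TiO2. Over both exposures, 8 pregnant arrays against 8 non-pregnant ones, 7 of the 37 genes passed the test, or 18.9%, where 2.3% of all genes did. Slfn4, Rsad2, Oasl1, Slfn1, Irf7 and Oas3 rose in pregnancy, by 1.33 to 2.49 times, and Ifit3 fell by 1.26 times, where 1.76% of all genes rose and 0.544% fell. Of the 37 differences 29 were above 0, and their median was 0.14 log2, against 53.5% above 0 and a median of 0.01 for all genes. At an unadjusted p under 0.05 there were 17 genes on the higher side and 1 on the lower, or 48.6% of the set against 15.4% of all genes.

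The number of calls moved with the arrays used. Without non-pregnant PBS replicates 3 and 4, the arrays with thymus transcripts, 14 genes passed, including all 7, and without these and pregnant TiO2 replicate 2 it was 11, with 6 of the 7 among them and Rsad2 lost (limma's adjusted p = 0.0509). Moving the conflicting array to the pregnant PBS group left 1 gene (Oasl1, limma's adjusted p = 0.0255). Leaving out non-pregnant PBS replicate 3 gave 12, and leaving out any one of non-pregnant PBS replicates 1, 2 and 4, non-pregnant TiO2 replicates 1, 2 and 3, pregnant PBS replicates 1 and 4 and pregnant TiO2 replicate 3 gave 4. Slfn4, Rsad2, Oasl1 and Slfn1 passed whichever single array was left out. Besides the arrays just named, Ifit3 was lost without non-pregnant TiO2 replicate 4, pregnant PBS replicate 2 or pregnant TiO2 replicates 1 or 4, Oas3 without pregnant PBS replicates 2 or 3 or pregnant TiO2 replicate 4, and Irf7 without pregnant PBS replicate 3.

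Within each exposure fewer genes passed, with 4 arrays against 4. After PBS, Slfn4 alone passed, 1 of 37 where 0.506% of all genes did. The groups did not overlap in 8 genes on the higher side and 1 on the lower, against 2.92% and 2.02% of all genes, and 29 of 37 differences were above 0 (50.8% of all genes) with a median of 0.18 log2. At an unadjusted p under 0.05 there were 12 higher and 1 lower, where 10% of all genes were in either direction. After TiO2, Oasl1 alone passed, where 0.775% of all genes did; 5 genes were higher in pregnancy without overlap, against 7.48% of all genes, and 24 of 37 differences were above 0 (55.6% of all genes) with a median of 0.14. At an unadjusted p under 0.05 there were 8 higher and 2 lower, against 15.8% of all genes. These comparisons share no array: 21 genes were above 0 in both, 5 below 0 in both and 11 differed in sign, against 30.5%, 24.1% and 45.4% of all genes.

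**Figure D2:**
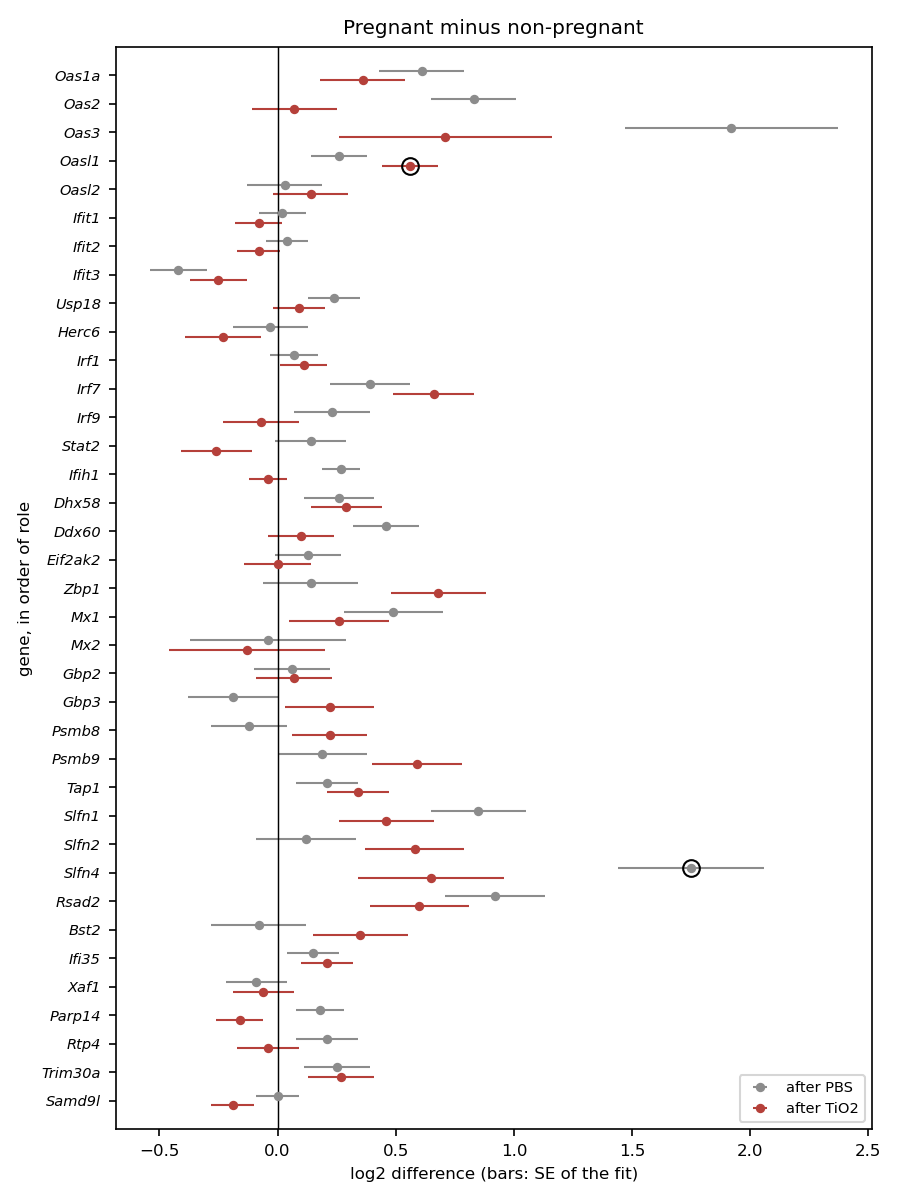
Points are the pregnant minus non-pregnant difference of each of the 37 genes on the log2 scale, after PBS (grey) and after TiO2 (red), with bars for the SE of limma's fit and a ring around the 2 that passed. Most points lie right of 0, and the differences of Oas3 (1.92) and Slfn4 (1.75) after PBS are the farthest from it.

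Of the 39 listed genes, 31 have a promoter window in the RefSeq table of GRCm38.p6, running from 250 bases before to 50 bases after a transcription start. The response element was searched as TTTC, any 2 bases and TTTC again, or the reverse complement, GAAA, any 2 bases and GAAA, which covers both strands. It was found for 14 of the 31 genes (45.2%), against 3.99% of 27025 genes with a window. The gamma-activated site, searched as TTCNNNGAA, reads the same on both strands and was found for 7 of the 31 (22.6%) against 9.55% of all genes; 3 genes held both. Windows of the same length were used throughout, and a match is a run of letters and not a measured binding site.

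Of the 7 genes that passed, Rsad2, Oas3 and Ifit3 hold the response element before the transcription start on which their window is set. Their sequences are shown because they pair the best-known promoter letters of the pathway with genes that moved in opposite directions. The windows of Slfn4, Slfn1, Oasl1 and Irf7 do not hold these letters, which says nothing about binding outside them. Sequences are from RefSeq GRCm38.p6, written 5′ to 3′ on the strand of the gene, and capitals mark the response element. The Rsad2 stretch is chr12:26456453-26456702 on the minus strand, and its element lies 120 to 111 bases before the start. That of Oas3 is chr5:120777685-120777909 on the minus strand, with the element 75 to 66 bases before the start. The annotated extent of Oas3 reaches beyond that start, to 120777684, and the element lies outside it. For Ifit3 the stretches around its 2 elements are chr19:34583363-34583392 and chr19:34583397-34583426 on the plus strand, with the elements at 156 to 147 and 122 to 113 bases before the start. The annotated extent of Ifit3 begins farther upstream, at 34583119, so both elements lie within it.
Rsad2: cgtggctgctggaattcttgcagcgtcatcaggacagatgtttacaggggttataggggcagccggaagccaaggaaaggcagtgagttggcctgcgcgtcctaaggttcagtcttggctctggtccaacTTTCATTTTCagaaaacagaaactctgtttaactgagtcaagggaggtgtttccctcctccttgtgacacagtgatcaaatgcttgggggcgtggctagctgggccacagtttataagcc
Oas3: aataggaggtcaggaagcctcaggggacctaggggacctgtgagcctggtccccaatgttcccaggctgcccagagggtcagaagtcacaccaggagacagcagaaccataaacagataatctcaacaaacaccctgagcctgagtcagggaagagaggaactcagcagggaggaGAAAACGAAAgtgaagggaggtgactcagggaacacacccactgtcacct
Ifit3, far element: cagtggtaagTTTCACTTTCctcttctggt
Ifit3, near element: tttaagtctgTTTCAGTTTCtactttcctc

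The Schlafen genes, a mouse family that restrains the growth of lymphoid and myeloid cells and lies in 1 cluster on chromosome 11, included the gene with the smallest adjusted p of the 37 for pregnancy. Slfn4, expressed in myeloid cells, measured 7.90, 8.12, 8.33 and 7.90 log2 in non-pregnant PBS replicates 1 to 4 and 10.20, 10.18, 9.62 and 9.23 in pregnant PBS. After TiO2 it measured 7.71, 7.38, 8.68 and 8.72 in non-pregnant and 8.20, 8.60, 9.04 and 9.24 in pregnant lungs. After PBS every pregnant array lay above every non-pregnant one, whereas after TiO2 the groups overlapped.
Slfn4 rose by 1.75 ± 0.31 log2 (SE) in pregnancy after PBS, 3.36-fold (limma's adjusted p = 0.0173), and by 1.20 ± 0.22 over both exposures (adjusted p = 0.00899). After TiO2 the difference of 0.65 ± 0.31 did not pass (adjusted p = 0.327). The call after PBS was lost without the 2 thymus arrays at nearly the same difference (1.80, adjusted p = 0.0565), without these and pregnant TiO2 replicate 2 (1.80, adjusted p = 0.0627), and with the conflicting array as pregnant (1.43, adjusted p = 0.266). It was also lost without non-pregnant PBS replicates 1 or 4 or pregnant PBS replicates 1 or 2, left out singly (1.62 to 1.70, adjusted p = 0.0533 to 0.0667).

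Slfn1, which slows the growth of T cells, measured 6.74, 7.10, 7.56 and 7.21 in non-pregnant PBS and 8.11, 8.31, 7.90 and 7.70 in pregnant PBS. After TiO2 its values were 6.31, 6.93, 6.90 and 7.08 in non-pregnant and 7.10, 7.01, 7.48 and 7.47 in pregnant lungs. The 4 pregnant PBS arrays were thus the highest 4 of all 16. Over both exposures Slfn1 rose by 0.66 ± 0.14 log2 (limma's adjusted p = 0.0218), with 0.85 ± 0.20 after PBS (adjusted p = 0.0763) and 0.46 ± 0.20 after TiO2 (adjusted p = 0.275). A weaker second probe set of Slfn1, at a mean of 4.62, gave 0.12, and with the probe sets of each gene averaged the call of Slfn1 was lost (0.39, limma's adjusted p = 0.144). Slfn2, needed for the quiescence of T cells and monocytes, was 0.12 ± 0.21 higher after PBS and 0.58 ± 0.21 after TiO2, neither of which passed (adjusted p = 0.91 and 0.19).

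The synthetases among the OAS genes make 2′-5′-linked oligoadenylates that activate the ribonuclease RNase L. All 5 genes of the family list lay above 0 in pregnancy under both exposures, as 30.5% of all genes did. Oas3 measured 4.35, 5.05, 6.26 and 4.86 in non-pregnant PBS and 6.99, 7.44, 7.05 and 6.73 in pregnant PBS, without overlap. After TiO2 it measured 4.90, 4.62, 5.31 and 5.91 in non-pregnant and 5.01, 5.12, 6.57 and 6.89 in pregnant lungs, where replicates 3 and 4 were high and replicates 1 and 2 lay among the non-pregnant values.
Oas3 rose by 1.32 ± 0.32 log2 over both exposures (limma's adjusted p = 0.0398), a call lost under 15 of 28 other settings, among them a pseudocount of 1 (1.91, adjusted p = 0.0872) and the values as deposited (1.26, adjusted p = 0.0999). Its difference after PBS, 1.92 ± 0.45 or 3.80-fold, did not pass (adjusted p = 0.0806), and neither did that after TiO2, 0.71 ± 0.45 (adjusted p = 0.47).

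Oasl1, an OAS-like protein without synthetase activity that holds back the translation of Irf7, had a narrow spread in most groups. It measured 6.36, 6.28, 6.30 and 6.13 in non-pregnant TiO2 and 6.70, 6.74, 7.0 and 6.86 in pregnant TiO2, so that these groups did not overlap. In non-pregnant PBS it measured 6.21, 6.86, 6.58 and 6.58, and in pregnant PBS 6.95, 6.83, 6.85 and 6.64, where replicate 2 of the former, the array with conflicting labels, reached the pregnant range. For Slfn4, Slfn1, Irf7, Oas3 and Rsad2 that array lay below every pregnant PBS array, and for Ifit3 above every one.
Oasl1 rose by 0.56 ± 0.12 log2 after TiO2 (limma's adjusted p = 0.0489) and by 0.41 ± 0.09 over both exposures (adjusted p = 0.021). The call after TiO2 sat at the threshold and was lost under 21 of 29 other settings, with adjusted p of 0.055 without the 2 thymus arrays and 0.0718 without these and pregnant TiO2 replicate 2. Removing any single array other than non-pregnant PBS replicates 1, 2 and 3 ended the call (0.50 to 0.60, adjusted p = 0.0539 to 0.117).

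Oas2, a further synthetase, did not pass in any comparison, but its PBS groups did not overlap. It measured 6.22, 6.45, 6.87 and 6.14 in non-pregnant and 7.61, 7.39, 7.02 and 6.97 in pregnant PBS, a difference of 0.83 ± 0.18 (limma's adjusted p = 0.059). After TiO2 it measured 6.79, 6.65, 7.0 and 6.46 in non-pregnant and 6.53, 6.93, 6.71 and 7.0 in pregnant lungs, where the groups overlapped and differed by 0.07 ± 0.18. Oas1a, another synthetase, was 0.61 ± 0.18 higher in pregnancy after PBS and 0.36 ± 0.18 after TiO2 (adjusted p = 0.0611 over both), and the OAS-like Oasl2 0.03 ± 0.16 and 0.14 ± 0.16.

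**Figure D3:**
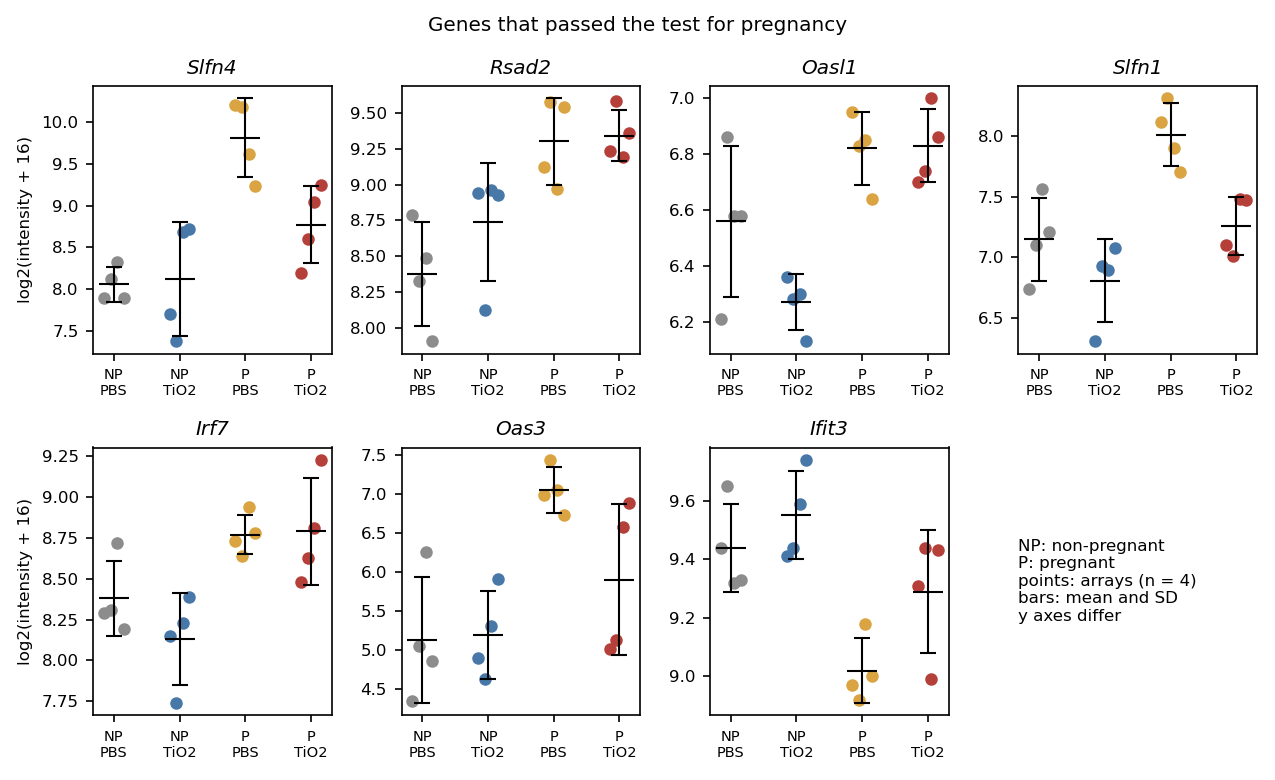
Each panel shows 1 of the 7 genes that passed for pregnancy over both exposures, with points for the 4 arrays of each group on the log2(intensity + 16) scale, bars for mean and SD, and a y axis of its own. Slfn4, Slfn1 and Oas3 are highest in pregnant PBS, Rsad2 is high in both pregnant groups, and Ifit3 is lowest in pregnant PBS.

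Rsad2, which encodes viperin, an enzyme that makes a chain-terminating nucleotide against viral RNA polymerases, separated the 2 states on every array. It measured 8.79, 8.33, 8.49 and 7.91 in non-pregnant PBS and 8.94, 8.13, 8.96 and 8.93 in non-pregnant TiO2. In pregnant lungs it measured 9.12, 9.57, 8.97 and 9.54 after PBS and 9.23, 9.58, 9.19 and 9.36 after TiO2. The lowest pregnant array, at 8.97, lay just above the highest non-pregnant one, at 8.96; such a split into 8 higher and 8 lower arrays held for 0.401% of all genes.
Rsad2 rose by 0.76 ± 0.15 log2 over both exposures (limma's adjusted p = 0.0141), with 0.92 ± 0.21 after PBS and 0.60 ± 0.21 after TiO2 (adjusted p = 0.074 and 0.19). Its other 2 probe sets gave 0.77 and 0.65 over both. The other 7 effectors did not pass.

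Over both exposures Bst2, a tether that holds budding virions at the cell surface, differed by 0.14 ± 0.14, Ifi35 by 0.18 ± 0.07, the apoptosis factor Xaf1 by −0.07 ± 0.09 and the ADP-ribosyltransferase Parp14 by 0.01 ± 0.07. Rtp4, a receptor chaperone, differed by 0.08 ± 0.10, the ubiquitin ligase Trim30a by 0.26 ± 0.10 and Samd9l by −0.10 ± 0.06. The 2 probe sets of Trim30a disagreed in sign, at 0.26 and −0.14, as did those of Xaf1, at −0.07 and 0.11. Other probe sets gave 0.01 and 0.05 for Ifi35, 0.31 for Parp14 and 0.12 for Rtp4.

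Among the transcription factors Irf7 passed and the other 3 did not. Irf7 measured 8.29, 8.31, 8.72 and 8.19 in non-pregnant and 8.73, 8.64, 8.94 and 8.78 in pregnant PBS. After TiO2 it measured 8.15, 7.74, 8.23 and 8.39 in non-pregnant and 8.48, 8.63, 8.81 and 9.23 in pregnant lungs, without overlap. After PBS the groups overlapped only through non-pregnant replicate 3, at 8.72, and pregnant replicate 2, at 8.64.
Irf7 rose by 0.53 ± 0.12 log2 over both exposures (limma's adjusted p = 0.0303), a call lost under 12 of 28 other settings, with 0.39 ± 0.17 after PBS (adjusted p = 0.441) and 0.66 ± 0.17 after TiO2 (adjusted p = 0.0866). Stat2 and Irf9, which act at the response element, differed by −0.06 ± 0.10 and 0.08 ± 0.11, and Irf1, the early factor of interferon gamma responses, by 0.09 ± 0.07.

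The IFIT family includes binders of viral RNA that lacks the host's cap methylation, and Ifit3 was the 1 gene that fell. Ifit3 measured 9.44, 9.65, 9.32 and 9.33 in non-pregnant and 8.97, 8.92, 9.18 and 9.00 in pregnant PBS, without overlap. After TiO2 it measured 9.41, 9.44, 9.59 and 9.74 in non-pregnant and 9.31, 9.44, 8.99 and 9.43 in pregnant lungs, where the groups met.
Ifit3 fell by 0.34 ± 0.08 log2 over both exposures (limma's adjusted p = 0.045), a call lost under 16 of 28 other settings. Its neighbours Ifit1 and Ifit2 differed by −0.03 ± 0.07 and −0.02 ± 0.06.

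The ISG15 system, which couples Isg15 to other proteins, did not pass. Its removing protease Usp18 measured 8.07, 8.37, 8.52 and 8.37 in non-pregnant and 8.60, 8.58, 8.62 and 8.49 in pregnant PBS. After TiO2 it measured 8.34, 8.20, 8.60 and 8.62 in non-pregnant and 8.59, 8.41, 8.47 and 8.66 in pregnant lungs. The groups overlapped under both exposures, through non-pregnant replicate 3 after PBS, and Usp18 differed by 0.17 ± 0.08 over both (limma's adjusted p = 0.336). Herc6, the mouse ligase for Isg15, differed by −0.13 ± 0.12, and its other probe sets gave 0.0, 0.03 and 0.18.

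None of the 5 nucleic acid sensors passed for pregnancy, though all 5 lay above 0 over both exposures (0.06 to 0.41), as 53.5% of all genes did. Other probe sets gave 0.07 for Ddx60, 0.05 and 0.05 for Dhx58, 0.04 for Zbp1 and 0.06 and −0.12 for Eif2ak2. After PBS 2 of them were higher without overlap, as 2.92% of all genes were: the long double-stranded RNA sensor Ifih1 (0.27 ± 0.08) and the helicase Ddx60 (0.46 ± 0.14), with limma's adjusted p of 0.242 and 0.244. After TiO2 these were −0.04 ± 0.08 and 0.10 ± 0.14. Zbp1, a sensor of Z-form nucleic acid that triggers necroptosis, showed 0.14 ± 0.20 after PBS and 0.68 ± 0.20 after TiO2 (adjusted p = 0.121), and the regulator Dhx58 0.26 ± 0.15 and 0.29 ± 0.15.

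The 3 antigen-processing genes, neighbours in the major histocompatibility region on chromosome 17, did not pass, and 2 of them were higher without overlap after TiO2, as 7.48% of all genes were. The immunoproteasome subunit Psmb9 measured 9.12, 9.20, 9.42 and 9.46 in non-pregnant and 10.05, 10.19, 9.60 and 9.73 in pregnant TiO2, a difference of 0.59 ± 0.19 (limma's adjusted p = 0.156). After PBS it measured 9.07, 9.52, 10.16 and 9.53 in non-pregnant and 9.65, 9.54, 9.96 and 9.89 in pregnant lungs, where non-pregnant replicate 3 was the highest of the 8. The peptide transporter Tap1 was 0.34 ± 0.13 higher in pregnancy after TiO2 (adjusted p = 0.219), and the subunit Psmb8 0.22 ± 0.16.

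The 4 GTPases did not pass either. Mx1 and Mx2, of a family with members that block incoming viruses, were weak signals at 4.17 to 6.14 log2. Mx1 is defective in most laboratory strains, BALB/c among them, and whether Mx2 is active in these mice was not examined. Mx1 differed by 0.38 ± 0.15 over both exposures and Mx2 by −0.09 ± 0.23. The guanylate-binding proteins Gbp2 and Gbp3, which coat vacuoles that hold pathogens, differed by 0.07 ± 0.11 and 0.02 ± 0.14.

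None of the 37 genes passed the test for TiO2 in either state. In non-pregnant lungs limma called 0 of the 37, where 0.0055% of all genes passed; at an unadjusted p under 0.05 there were 1 higher and 2 lower, or 8.11% against 8.49% of all genes. In pregnant lungs it called 0 of the 37 and 0.0% of all genes, with 3 higher and 5 lower at an unadjusted p under 0.05, or 21.6% against 5.91%. The medians of the set were 0.06 and −0.05 log2, the former −0.03 without non-pregnant PBS replicate 1 and −0.04 without non-pregnant TiO2 replicate 4. All 29 alternative settings also gave 0 in each state.

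Eif2ak2, the kinase PKR, which halts translation when it binds double-stranded RNA, had the smallest p of the set in non-pregnant lungs. It measured 6.57, 6.29, 6.40 and 6.59 after PBS and 7.03, 6.86, 6.82 and 7.18 after TiO2, without overlap, as held for 1.71% of all genes. The difference was 0.51 ± 0.14 log2 (limma's adjusted p = 0.374). In pregnant lungs it measured 6.52, 6.68, 6.42 and 6.74 after PBS and 6.76, 6.63, 7.15 and 7.34 after TiO2, where replicates 3 and 4 were high and replicate 2 lay inside the PBS range; the difference was 0.38 ± 0.14 (adjusted p = 0.832). Its 2 other probe sets gave 0.15 and 0.51 in non-pregnant and 0.14 and 0.25 in pregnant lungs. Slfn2 (−0.55 ± 0.21) and Oasl1 (−0.29 ± 0.12) were the 2 genes below 0 at an unadjusted p under 0.05 in non-pregnant lungs.

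In pregnant lungs 4 of the 5 genes on the lower side at an unadjusted p under 0.05 after TiO2 were Schlafen or OAS genes. This comparison shares the pregnant PBS arrays with that of pregnancy after PBS. High values on those arrays raise the pregnancy difference and lower the TiO2 difference, so the 2 are not separate results. Slfn1 was lower by 0.74 ± 0.20 log2 without overlap (limma's adjusted p = 0.642), a split that 1.96% of all genes showed. Slfn4 differed by −1.04 ± 0.31, Oas3 by −1.16 ± 0.45, Oas2 by −0.45 ± 0.18 and Samd9l by −0.23 ± 0.09, none of which passed (adjusted p = 0.706 to 0.832). Gbp3 was on the higher side, at 8.38, 8.24, 8.08 and 8.19 after PBS and 8.56, 8.62, 8.55 and 9.11 after TiO2; in non-pregnant lungs it measured 7.98, 8.38, 8.99 and 8.28 after PBS and 8.32, 8.21, 8.60 and 8.81 after TiO2. The pregnant groups did not overlap, as held for 1.86% of all genes, replicate 4 stood far above the other 3, and the difference was 0.48 ± 0.19 (adjusted p = 0.832). Ifit3 differed by 0.27 ± 0.12 (adjusted p = 0.836). In the same comparison 9 of 12 neutrophil markers were lower at an unadjusted p under 0.05, where 5.91% of all genes differed in either direction. The neutrophil list had a median of −0.57 and 0 calls by limma. The part of these markers in the values of Slfn4 and Slfn1 was not tested.

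**Figure D4:**
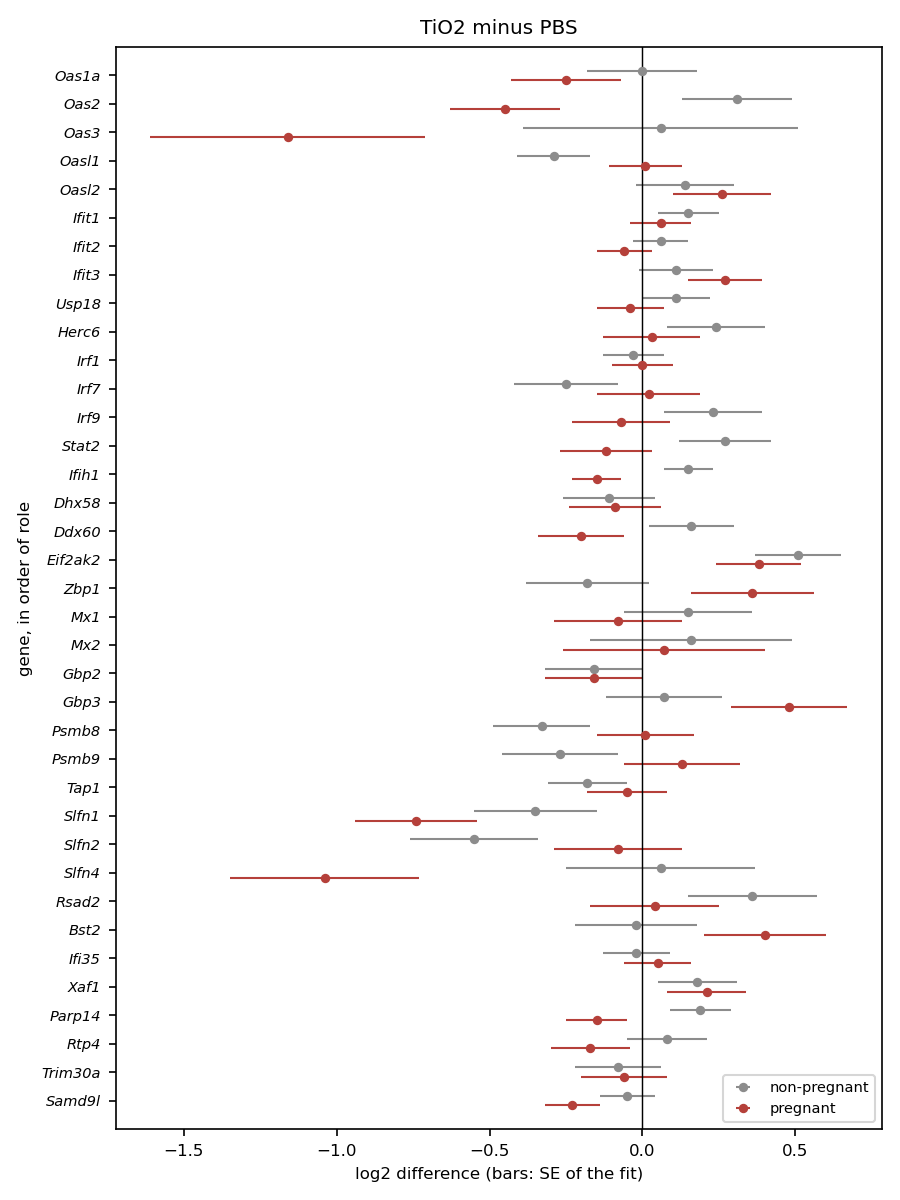
Points are the TiO2 minus PBS difference of each of the 37 genes on the log2 scale in non-pregnant (grey) and pregnant (red) lungs, with bars for the SE of limma's fit. None passed the test, and the points of Oas3, Slfn4 and Slfn1 in pregnant lungs lie farthest left of 0.

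Whether the TiO2 difference itself differed between pregnant and non-pregnant lungs was tested as an interaction. Limma called 0 of the 37, where 0.0055% of all genes passed, and the median was −0.10 log2 against 0.03 for all genes. At an unadjusted p under 0.05 there were 0 genes more positive in pregnant lungs and 4 more negative, or 10.8% of the set against 8.96% of all genes. These were Oas2 (−0.76 ± 0.26, adjusted p = 0.492), Slfn4 (−1.10 ± 0.44, adjusted p = 0.522), Ifih1 (−0.31 ± 0.12) and Parp14 (−0.34 ± 0.14). The contrast of Slfn4 between the exposures is therefore not shown to be larger than the spread between arrays after correction. Over both states, TiO2 against PBS gave 0 of the 37, and 0.0% of all genes, with 3 higher and 4 lower at an unadjusted p under 0.05, against 5.74% of all genes. Of the 2 TiO2 differences, which share no array, 9 genes were above 0 in both states, 9 below 0 in both and 19 of opposite sign, against 20.5%, 24.5% and 55.0% of all genes.

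The mean over the 37 genes was 7.99 ± 0.19 log2 (SD, n = 4) in non-pregnant PBS, 8.02 ± 0.16 in non-pregnant TiO2, 8.27 ± 0.06 in pregnant PBS and 8.20 ± 0.13 in pregnant TiO2. Non-pregnant PBS replicate 3 had the highest value of its group for 27 of the 37 genes, and replicate 1 the lowest for 22. Non-pregnant TiO2 replicate 4 was highest in its group for 23 genes, as was pregnant TiO2 replicate 4. In pregnant PBS no array led in this way: replicates 1 to 4 were highest for 12, 12, 10 and 3 genes. The same counts over all genes were not made.

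Genes that make and sense interferon were examined through further lists. Of 14 interferon genes 9 were measured, 7 of them never above an array's median; limma called 0 in the 3 pregnancy comparisons, with 0 at an unadjusted p under 0.05, and Ifnb1 ranged from 4.26 to 5.94 log2 and Ifng from 4.10 to 4.82 over the 16 arrays. Of 14 receptor and JAK-STAT genes 13 were measured, and 1 passed, in pregnancy after TiO2, where 0.775% of all genes did. Ifnar2, a subunit of the type I receptor, rose by 0.39 ± 0.08 there (limma's adjusted p = 0.0421). Its values were 9.41, 9.50, 9.44 and 9.59 in non-pregnant and 9.89, 9.88, 9.90 and 9.81 in pregnant TiO2, while after PBS it differed by −0.06 ± 0.08. The other subunit, Ifnar1, differed by −0.27 ± 0.12 in pregnancy after TiO2 (limma's adjusted p = 0.272). The median of the 13 genes there was −0.08 log2, against 0.03 for all genes. Of 16 genes of upstream sensing 15 were measured, and 2 rose in pregnancy over both exposures: the factor Irf8 by 0.37 ± 0.09 (adjusted p = 0.0374) and the adaptor Myd88 by 0.22 ± 0.05 (adjusted p = 0.045). Of all genes 1.76% rose in that comparison. Genes of these and the later lists were taken from 1 probe set each, and their calls were not examined under other settings.

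A further 40 interferon-stimulated genes outside the set gave 37 measured and 3 that rose in pregnancy over both exposures, with 0 that fell. Of all genes 1.76% rose and 0.544% fell. Ifitm1, a membrane protein that blocks viral fusion, measured 9.68 to 10.24 on the 8 non-pregnant and 10.44 to 10.82 on the 8 pregnant arrays, without overlap, as held for 0.401% of all genes. It rose by 0.78 ± 0.12 log2 after PBS, 0.59 ± 0.12 after TiO2 and 0.68 ± 0.09 over both (limma's adjusted p = 0.00982, 0.0452 and 0.000776). Ifitm6, of the same family and found mainly in myeloid cells, rose by 1.37 ± 0.23 after PBS (adjusted p = 0.0139) and 1.12 ± 0.16 over both (adjusted p = 0.00198). Ms4a4c, a tetraspanning protein of leukocytes, rose by 0.89 ± 0.15 over both (adjusted p = 0.00607). The broadly expressed Ifitm3 differed by 0.01 ± 0.06. The median of these 37 genes was 0.05 in pregnancy over both exposures, against 0.01 for all genes.

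Genes most closely tied to interferon gamma, the immunity-related GTPases and the Cxcl9 to Cxcl11 chemokines, gave 12 measured of 16 and 0 calls by limma for pregnancy, with 1 gene lower at an unadjusted p under 0.05 after PBS, 1 lower after TiO2 and 0 over both. Their median in pregnancy was −0.15 log2 after PBS and 0.12 after TiO2. Cxcl10 measured 6.16, 5.87, 6.04 and 6.37 in non-pregnant and 5.82, 5.61, 5.50 and 5.52 in pregnant PBS, without overlap and in the lower direction (−0.50 ± 0.21, limma's adjusted p = 0.416). Such a split held for 2.02% of all genes. Class I presentation genes gave 9 measured of 10 and 0 calls by limma, with 2 genes higher at an unadjusted p under 0.05 and a median of 0.08 over both exposures. At that threshold 15.4% of all genes differed, in either direction.

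Markers of several cell types differed with pregnancy in the same lungs. The mean of 12 measured neutrophil markers ranged from 7.47 to 7.73 log2 in non-pregnant PBS, 7.32 to 7.61 in non-pregnant TiO2, 8.22 to 8.72 in pregnant PBS and 7.62 to 8.09 in pregnant TiO2, and none of the 12 was below the array median on all arrays. Of these markers 5 rose in pregnancy after PBS, 1 after TiO2 and 7 over both exposures, among them S100a9 (1.31 ± 0.15, limma's adjusted p = 0.000495). Of all genes 0.506%, 0.775% and 2.3% passed in these comparisons in either direction, and 1.76% rose over both. The 7 monocyte markers averaged 8.22 to 8.67 on non-pregnant and 8.61 to 8.99 on pregnant arrays, with 3 that rose over both, and the 9 alveolar macrophage markers 8.42 to 8.72 and 8.96 to 9.21, with 4 that rose. Chil3 is on both lists, so they are not separate sets of genes. The 8 B-cell markers averaged 6.52 to 7.77 on non-pregnant and 7.12 to 7.73 on pregnant arrays, with a median difference of 0.57 over both exposures against 0.54 for the neutrophil list; 1 of them, Cr2, rose (0.73 ± 0.16, limma's adjusted p = 0.0218), and 7 were higher and 1 lower at an unadjusted p under 0.05. The 6 fat markers had a median difference of 0.71, with 0 calls by limma and 3 higher at an unadjusted p under 0.05. At that threshold 15.4% of all genes differed over both exposures, in either direction. Within the neutrophil list, pregnant PBS replicates 1 and 2 were the highest of their group and pregnant TiO2 replicates 1 and 2 the lowest of theirs. Slfn4 had the same 2 arrays highest in pregnant PBS and the same 2 lowest in pregnant TiO2. In non-pregnant PBS replicates 2 and 3 were the highest for both. In non-pregnant TiO2 the order was opposite at its ends. There replicate 4 was highest for Slfn4 (8.72) and lowest for the neutrophil list (7.32). Replicate 2 was lowest for Slfn4 (7.38) and highest for the list (7.61). The part of these cell types in the result was not tested.

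**Figure D5:**
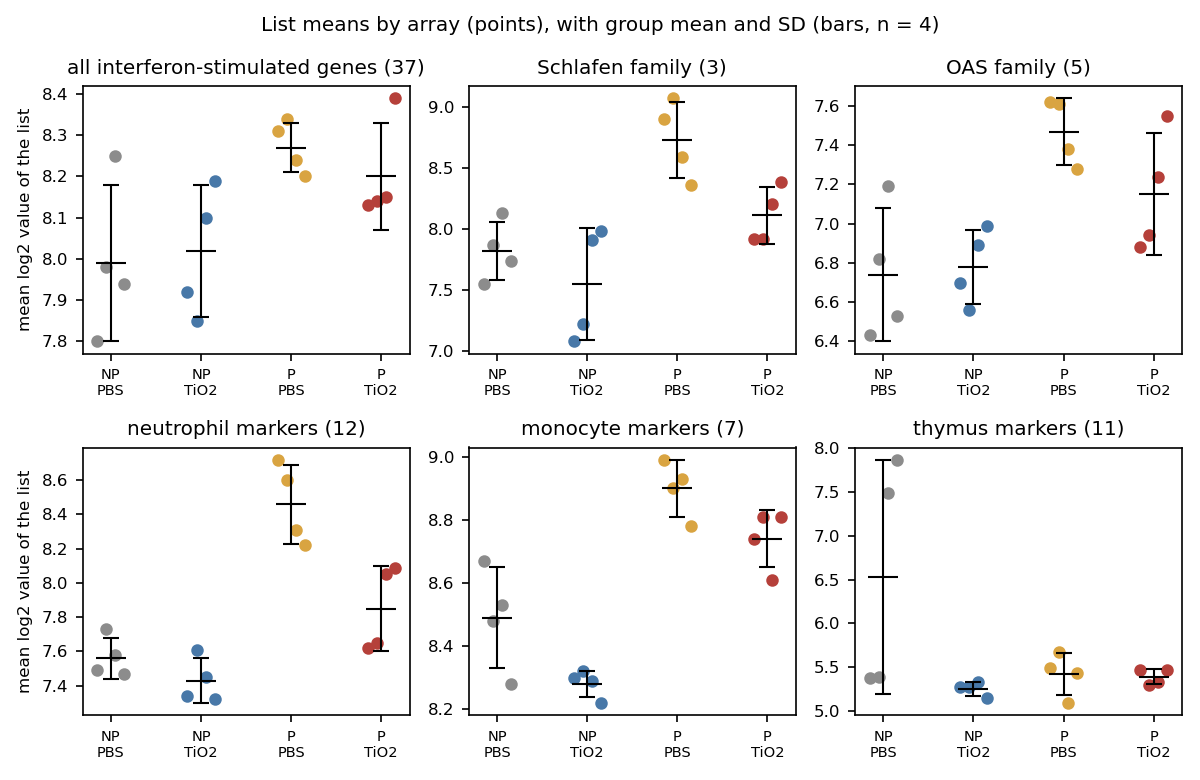
Points are the mean log2 value of a gene list on each array, with bars for group mean and SD (n = 4), for the 37 interferon-stimulated genes, their Schlafen and OAS members and 3 marker lists (NP, non-pregnant; P, pregnant; y axes differ). The Schlafen, OAS and neutrophil lists are highest in pregnant PBS, and the thymus markers are high on 2 non-pregnant PBS arrays alone.

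Plasmacytoid dendritic cell markers, of the cell type known for making the most type I interferon, averaged 7.54 to 8.53 log2 on non-pregnant and 7.78 to 8.10 on pregnant arrays, and their 2 highest arrays were the non-pregnant PBS arrays with thymus transcripts. Of 7 measured, 1 rose in pregnancy over both exposures, where 1.76% of all genes did. It was Irf8, which is also on the list of upstream sensing. Bst2 is both such a marker and one of the 37. T-cell markers averaged 8.12 and 8.27 on those 2 arrays and 6.18 to 7.12 on the other 14, and limma called 0 of 11 for pregnancy in the 3 comparisons, with 2 higher at an unadjusted p under 0.05 after TiO2 and 0 after PBS or over both. At that threshold 15.8% of all genes differed after TiO2, in either direction. For the 37 genes, the median difference in pregnancy after PBS was 0.32 log2 without the 2 arrays and 0.18 with them.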

How the data were processed

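Probe intensities of 16 Affymetrix mouse 430 2.0 arrays were used as deposited by the authors, on a linear scale. The submitters' processing notes name GCOS, MAS5 and RMA; which of them made the values, in what order and in which versions is not given in the sources used here. Trimmed means (2% off each end) ran from 137.1 to 263.1, so the arrays were quantile-normalized and log2(intensity + 16) was taken, with 64 control probe sets left out. The number of arrays limits the precision.

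Of 45037 probe sets, 34945 had 1 gene symbol, 932 several and 9160 none in the platform annotation; 34741 were matched to RefSeq for current symbols. The probe set with the highest mean stood for each gene, without a filter on signal (18193 genes). One model of 4 group means was fitted with limma 3.58.1 in R 4.3.3 (lmFit and eBayes, 12 residual degrees of freedom), and p-values were adjusted by Benjamini-Hochberg over all genes at 0.05. Its script was tested on simulated data. Groups came from the labels' gestation and treatment fields.

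The members and all lists were chosen with earlier results of these data known. Values of all 16 arrays are given for members that passed any test, for up to 3 members per direction and comparison with the smallest p among those whose groups did not overlap, and for the first listed member of a role group otherwise without one; of other lists, genes that passed are named. Ifnb1, Ifng, Ifitm3 and Cxcl10 were named outside this rule, after their values were seen. Rigi was matched by its older symbol, Ddx58. Alternatives changed the scaling, pseudocount, filter, probe set rule, fit, the conflicting array, the arrays of unlike tissue, and each array in turn.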

Additional observations from a re-analysis of the deposited data

Results flagged for a closer look

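Within the 4 arrays of a group, 3 of 52 sets of values had 1 array farther from the rest than Dixon's critical value allows, where chance flags about 1 in 20. Rsad2 in non-pregnant TiO2 replicate 2 was 8.13 log2, with the other 3 arrays at 8.93 to 8.96. Gbp3 in pregnant TiO2 replicate 4 was 9.11, with the others at 8.55 to 8.62. The mean over the 37 genes in pregnant TiO2 replicate 4 was 8.39, with the others at 8.13 to 8.15.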

How the results depend on the processing

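No called value of the 37 genes changed sign under any alternative, and calls of genes outside the 37 were not examined in this way. The median of the set for TiO2 in non-pregnant lungs (0.06) did so without non-pregnant PBS replicate 1 (−0.03) or non-pregnant TiO2 replicate 4 (−0.04), and that for TiO2 over both states lay between −0.03 and 0.05. The TiO2 comparisons and the interaction gave 0 of the 37 genes under every one. The number of the 37 that passed for pregnancy moved more. After PBS (1) it was 0 with the conflicting array as pregnant, 5 with a filter on low values, 2 with an intensity trend, 4 with a pseudocount of 64, 2 without the 2 thymus arrays and 3 without the 3 arrays of unlike tissue, and neither of these last settings kept Slfn4. Leaving out single arrays gave 0 to 4: 0 without non-pregnant PBS replicates 1 or 4 or pregnant PBS replicates 1 or 2, 4 without non-pregnant PBS replicate 3, and 2 without non-pregnant TiO2 replicates 1 or 2. After TiO2 (1) it was 3 with array weights, and 0 with the conflicting array as pregnant, an intensity trend, probe sets without a suffix, a pseudocount of 1, trimmed-mean scaling, the values as deposited, and without the 2 thymus or the 3 unlike arrays. Leaving out single arrays gave 0 to 1, with 1 only without non-pregnant PBS replicates 1, 2 or 3. Over both exposures (7) it was 1 with the conflicting array as pregnant, 1 with the values as deposited, 5 with a pseudocount of 1, 6 with probe sets averaged, 14 without the 2 thymus arrays and 11 without the 3, and 4 to 12 without single arrays. Over all genes, calls ranged from 0 to 162 after PBS, 1 to 565 after TiO2 and 32 to 753 over both. With the values as deposited, the median of the set was 0.35 for pregnancy after PBS (all genes 0.13) and −0.38 for the interaction (all genes −0.19). The cause of these shifts was not tested. A fit of only the groups compared gives no value over both exposures or for the interaction. No paired analysis was possible because the labels give no replicate numbers. Weak signals, Mx1, Mx2 and Oas3 among them, are limited by their height over background.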
